A study of Rattus norvegicus with 8 samples.

Results

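AMPA receptor auxiliary proteins are membrane proteins that ride with the pore-forming receptor subunits, and 10 of their genes were chosen here by symbol from the authors' deposited table: Cacng2, Cacng3, Cacng4, Cacng5, Cacng7, Cacng8, Cnih2, Cnih3, Shisa7 and Shisa9. Of these, 9 were matched to an Ensembl identifier, out of 32623 annotated genes, and all 9 passed the low-count filter that left 11740 genes for testing. Shisa9 had no match by symbol and is not analysed here. Counts came from polyadenylated RNA of hippocampal neuronal cultures of wild-type SD rats on day 18 in vitro. The treated group (PAM, 4 libraries) received an NMDA receptor positive allosteric modulator, which makes this glutamate receptor channel pass more current when its agonists bind; the control group (4 libraries) received vehicle. Which modulator was used, at what dose and for how long is not stated in those sources. Since no label ties the replicates to separate cultures, p-values cover only the spread between libraries, which may be technical.

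AMPA receptors carry most fast excitatory transmission in the brain and are tetramers of the subunits encoded by Gria1 to Gria4. The transmembrane AMPA receptor regulatory proteins (TARPs) take the receptor to the surface, slow its closing and, in the type I class (Cacng2, Cacng3, Cacng4 and Cacng8), hold it at the synapse by binding the scaffold encoded by Dlg4. Type II TARPs (Cacng5 and Cacng7), the cornichons (Cnih2 and Cnih3) and the Shisa proteins alter export from the endoplasmic reticulum or channel kinetics in other ways, so the mix of auxiliary proteins sets much of how a receptor behaves.

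Sequence upstream of the transcription start is shown for the 3 members with the most upstream bases outside the gene's annotated span in the promoter table: Cacng8 and Shisa7, which were lower with PAM, and Cnih2, which did not pass the test. The bases are from RefSeq, assembly GRCr8, read 5′ to 3′ on the gene's strand, and capitals mark E-boxes (CANNTG, the core of sites for basic helix-loop-helix factors such as those of the Neurod family) and GC boxes (GGGCGG on either strand).
Cacng8, chr1:74691004-74691253, minus strand: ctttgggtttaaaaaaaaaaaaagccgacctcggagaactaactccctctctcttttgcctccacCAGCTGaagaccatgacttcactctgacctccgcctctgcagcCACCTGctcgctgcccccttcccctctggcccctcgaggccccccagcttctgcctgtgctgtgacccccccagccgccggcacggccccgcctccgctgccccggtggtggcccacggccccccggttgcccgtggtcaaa
Shisa7, chr1:78022581-78022679, plus strand: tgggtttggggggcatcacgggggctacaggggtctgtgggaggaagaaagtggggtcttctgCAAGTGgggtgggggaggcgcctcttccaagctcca
Cnih2, chr1:211834475-211834687, minus strand: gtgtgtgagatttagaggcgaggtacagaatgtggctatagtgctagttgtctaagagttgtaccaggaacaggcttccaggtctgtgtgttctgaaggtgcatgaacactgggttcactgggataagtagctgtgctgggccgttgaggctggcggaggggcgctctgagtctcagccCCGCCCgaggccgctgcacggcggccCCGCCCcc
The printed stretches stop where the annotated gene begins, after 250 bases for Cacng8, 99 for Shisa7 and 213 for Cnih2. Over the full window of 250 bases before the table's start site, Cacng8 held 2 E-boxes and 0 GC boxes, Shisa7 3 E-boxes and 1 GC box, and Cnih2 0 E-boxes and 3 GC boxes. In Shisa7, 2 of the E-boxes had the NeuroD-type letters CAGATG, a match found in 14% of all 33469 promoters, and a GC box was found in 30.5%. For Cacng2, Cacng5 and Cnih3 the whole window lies inside the gene's annotated span, for Cacng3 all but 22 bases and for Shisa7 all but the 99 printed, so counts over the windows may include transcribed sequence. An E-box was found in 6 of the 7 members with a window in the table, against 65.5% of all promoters. None of the 7 had a full cAMP response element (TGACGTCA, in 1.59% of promoters), an AP-1 site (TGANTCA, 6.34%) or an Egr site (GCGTGGGCG, 0.478%). All motifs were searched on both strands, and an absent match says only that these letters are not in this window.

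Auxiliary protein transcripts were lower with PAM in 5 of 9 genes and higher in 0, while the hippocampal TARP gene Cacng8 fell and its relative Cacng4 stayed within the spread between libraries. The 5 that fell were Cacng2, Cacng8, Cacng5, Cacng7 and Shisa7 (quasi-likelihood test of edgeR; p adjusted over all tested genes by Benjamini-Hochberg, threshold 0.05). None of the 9 was higher at an unadjusted p under 0.05 by edgeR either, and DESeq2 and limma-voom also called 0 higher. Among all tested genes 9.89% were lower and 9% higher by the same rule. All 9 members had a negative log2 fold change, from -1.90 to -0.01, with a median of -0.65 against 0.02 over all tested genes. Values below 0 were also held by 5642 of all 11740 tested genes and by 12 of 13 tested pan-neuronal marker genes. Every PAM library lay below every vehicle library for 6 of the 9, the 5 above and Cacng3, against 12% of all tested genes. The same 5 genes carry an adjusted p under 0.05 in the authors' deposited table, with log2 fold changes there from -1.92 for Cacng5 to -0.65 for Shisa7.

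**Figure D1:**
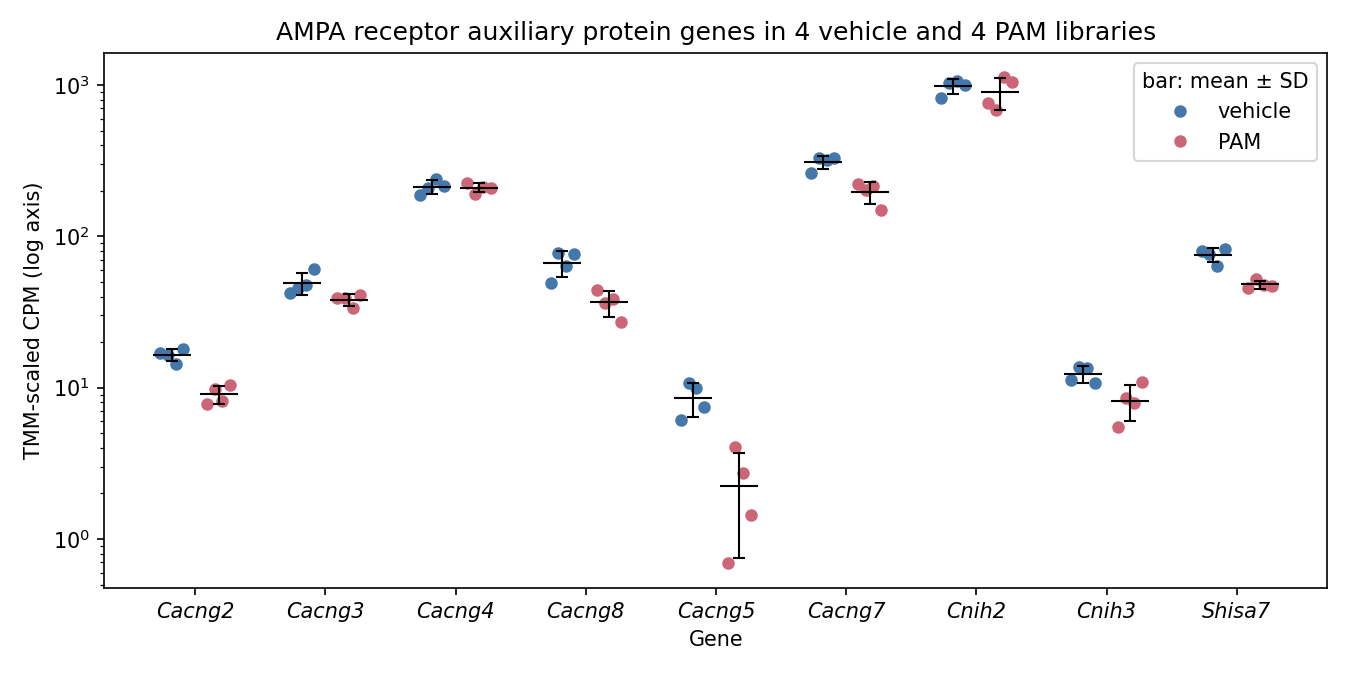
TMM-scaled CPM (counts scaled by library size, log axis) of 9 auxiliary protein genes in each of 4 vehicle and 4 PAM libraries, in replicate order from left to right, with the mean ± SD as bars. Cnih2 lies between 678 and 1124 CPM in all libraries, while Cacng5 drops from 6.1 to 10.7 CPM in vehicle to 0.691 to 4.05 CPM in PAM libraries.

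Depth ran from 2960406 to 4389430 counts a library. At that depth 3 counts, the upper limit that a count of 0 leaves, are worth 0.64 to 1.08 CPM, for counting error only. PAM 3 and PAM 4 stood apart in how log2 CPM, less each gene's mean over the 8 libraries, ran with exonic length. Their slopes were -0.0853 and -0.132 log2 units per doubling against 0.0052 to 0.0627 in the other 6. Such slopes are relative between libraries, so those of the other 6 depend on PAM 3 and PAM 4. Markers of other cells moved with the groups. The summed level of 13 pan-neuronal markers was 6422 to 7207 CPM in vehicle and 5023 to 6387 CPM in PAM libraries, and that of 10 excitatory neuron markers 1412 to 1663 and 913.9 to 1048 CPM. The 9 inhibitory neuron markers summed to 1502 to 1677 and 1061 to 1622 CPM. The 9 astrocyte markers summed to 6081 to 6396 CPM in vehicle and 8818 to 10740 CPM in PAM libraries, the 9 oligodendrocyte lineage markers to 852.5 to 949.9 and 1155 to 1500 CPM, and the 6 matched ependymal and choroid plexus markers to 16.9 to 29.0 and 70.7 to 118.7 CPM. Of 6 microglia markers 2 were matched, Aif1 and Csf1r, at no more than 2.51 and 4.38 CPM. The part of these shifts in the results that follow was not tested beyond the scalings given further on. In bulk RNA, fewer cells of a type and less RNA per cell cannot be told apart.

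Among the type I TARP genes, Cacng8 (ENSRNOG00000057848; Rnor_6.0 chromosome 1, 64330106 to 64350338, minus strand) encodes the TARP that is most abundant in hippocampal pyramidal cells. It was at 49.4, 77.3, 63.5 and 76.3 CPM in vehicle 1 to 4 and at 44.2, 36.5, 38.6 and 27.0 CPM in PAM 1 to 4. The groups did not overlap, although vehicle 1 and PAM 1 lay close together. The log2 fold change was -0.86 ± 0.17 (SE), with an adjusted p of 0.00187 by edgeR with Benjamini-Hochberg adjustment. Each fit without 1 library kept the gene lower, from -0.97 without vehicle 1 to -0.75 without PAM 4. With both PAM 3 and PAM 4 left out it was at -0.71 (edgeR, Benjamini-Hochberg adjusted p = 0.00131, range over 19 alternatives 5.16e-06 to 0.0788). The gene shares exon bases with 1 other annotated gene, which had 0 counts.

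Cacng2 (ENSRNOG00000006226; chromosome 7, 119228102 to 119352605, minus strand) encodes stargazin, the founding TARP. Vehicle libraries held 17.1, 16.5, 14.4 and 18.1 CPM and PAM libraries 7.84, 9.81, 8.21 and 10.5 CPM, from 29 to 60 counts a library. Even the highest PAM library was below the lowest vehicle library. The log2 fold change of -0.87 ± 0.25 was of the size of that of Cacng8 but rested on fewer counts, at adjusted p = 0.0181 (edgeR, Benjamini-Hochberg). Without vehicle 2, vehicle 4 or PAM 1 the call ended (edgeR, Benjamini-Hochberg adjusted p = 0.0521, 0.0613 and 0.056, range over 19 alternatives 0.00694 to 0.191), with log2 fold changes of -0.86, -0.82 and -0.80.

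Cacng3 (ENSRNOG00000012362; chromosome 1, 192613372 to 192709078, plus strand), a TARP of cortical and hippocampal neurons, was at 42.4, 45.7, 47.6 and 60.8 CPM in vehicle and 39.0, 39.0, 33.4 and 41.1 CPM in PAM libraries. All PAM libraries lay below all vehicle libraries, by little. Its log2 fold change of -0.37 (95% interval -0.75 to 0.02) did not pass, at adjusted p = 0.114 by edgeR with Benjamini-Hochberg adjustment. Cacng4 (ENSRNOG00000003262; chromosome 10, 95951234 to 96015499, minus strand), a TARP prominent in the immature brain, held 187, 208, 239 and 216 CPM in vehicle and 225, 192, 213 and 210.2 CPM in PAM libraries. These groups overlapped fully, with a log2 fold change of -0.01 (95% interval -0.28 to 0.25). Its sign turned positive under 6 of 19 alternatives. The largest values were 0.25 with counts scaled to summed pan-neuronal markers and 0.37 with counts scaled to summed Gria1 to Gria4. The interval leaves out a change of the size measured for Cacng8.

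Per length, Cacng4 and Cacng8 were the leading type I genes in vehicle libraries, at 54.1 ± 5.47 and 52.7 ± 10.4 CPM per kb of exon (SD, n = 4), a difference within their spread. Cacng3 followed at 24.0 ± 3.95 and Cacng2 at 5.78 ± 0.548 CPM per kb. In PAM libraries Cacng4 was at 53.5 ± 3.55 and Cacng8 at 28.9 ± 5.66 CPM per kb. The share of Cacng8 in the summed level per length of the 4 genes was 34.5%, 43.0%, 36.0% and 39.8% in vehicle and 30.6%, 28.8%, 29.3% and 21.7% in PAM libraries. Cacng4 took 36.4% to 43.7% in vehicle and 48.8% to 54.3% in PAM libraries. For both genes the groups did not overlap. Shares of a common total are tied to each other. With Cacng4 itself at 54.1 and 53.5 CPM per kb, its larger share is no result separate from the lower levels of the other genes. Cacng3 kept to 15.7% to 19.6% and 15.7% to 20.3%, and Cacng2 ran from 3.62% to 5.28% and from 2.40% to 3.71%. Shares depend on the gene models, since the Cacng8 model has 1266 exonic bases against 3925 for Cacng4. Without division by length Cacng8 took 19.2 ± 2.6% and 12.4 ± 2.07%, and Cacng4 61.7 ± 3.29% and 71.5 ± 1.67%, in vehicle and PAM libraries.

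**Figure D2:**
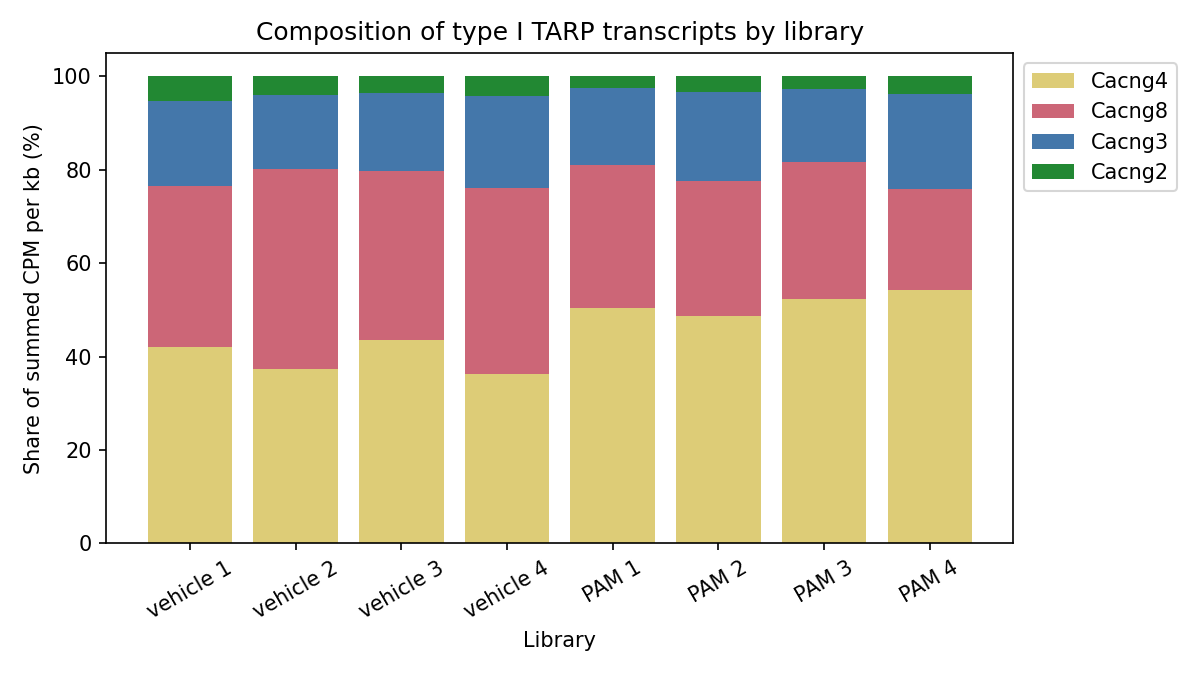
Share of each type I TARP gene (%) in their summed CPM per kb of exon, in each vehicle and PAM library. The Cacng4 share is 36.4% to 43.7% in vehicle and 48.8% to 54.3% in PAM libraries, and the Cacng8 share is smaller in every PAM library than in any vehicle library.

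Both type II genes fell. Cacng7 (ENSRNOG00000056257; chromosome 1, 64374603 to 64405149, minus strand) was the most abundant TARP gene per length, at 149 ± 15.1 CPM per kb in vehicle and 94.8 ± 16 CPM per kb in PAM libraries. It had 263, 327, 320 and 328 CPM in vehicle and 220.3, 202, 216 and 148 CPM in PAM libraries. The groups were separate, with vehicle 1 the lowest of its group and PAM 4 the lowest of all. Its log2 fold change was -0.65 ± 0.13 at adjusted p = 0.00123 (edgeR, Benjamini-Hochberg).

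Cacng5 (ENSRNOG00000003288; chromosome 10, 96123397 to 96131880, minus strand) had the largest decrease of the 9 genes and the fewest counts, with 20, 39, 32 and 23 counts in vehicle and 3, 19, 10 and 4 counts in PAM libraries. That is 6.1, 10.7, 10.02 and 7.44 CPM against 0.691, 4.05, 2.74 and 1.44 CPM. No PAM library reached the lowest vehicle library, and PAM 1 was at its floor of 3 counts. The log2 fold change of -1.90 ± 0.47 (edgeR, Benjamini-Hochberg adjusted p = 0.00769) had a wide 95% interval, -3.04 to -0.75. Over the fits without 1 library it ran from -2.40 without PAM 2 to -1.58 without PAM 1, and the gene passed in all 8.

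Several TARP genes are neighbours on the chromosome. Cacng4 and Cacng5 lie 108 kb apart on chromosome 10 and on the same strand. The count ratio of Cacng5 to Cacng4 was 0.0327 to 0.0516 in vehicle and 0.00307 to 0.0211 in PAM libraries. Cacng8 and Cacng7 lie 24.3 kb apart on chromosome 1, and their ratio overlapped between the groups, 0.188 to 0.236 in vehicle and 0.178 to 0.201 in PAM libraries. On the other side of Cacng8, 8.86 kb away, Cacng6, a calcium channel subunit gene whose product is not counted among the TARPs, was at 4.64 ± 0.956 and 1.70 ± 1.73 CPM with overlapping groups. By edgeR the log2 fold change was -1.49 at a Benjamini-Hochberg adjusted p of 0.0926, past no threshold.

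Cnih2 and Cnih3 encode cornichons, cargo exporters of the endoplasmic reticulum that stay with AMPA receptors in hippocampal neurons and slow their deactivation. Cnih2 (ENSRNOG00000020247; chromosome 1, 220474493 to 220480132, minus strand) was by far the most abundant auxiliary protein gene per length, at 737 ± 83.1 CPM per kb in vehicle and 679 ± 162 CPM per kb in PAM libraries. It held 819.5, 1024, 1070 and 1006 CPM in vehicle and 765, 678, 1124 and 1044 CPM in PAM libraries. PAM 1 and PAM 2 lay below all vehicle libraries, while PAM 3 and PAM 4, the libraries set apart by their length slopes, lay among or above them. With all libraries the log2 fold change was -0.12 (95% interval -0.47 to 0.23) and did not pass. With PAM 3 and PAM 4 left out Cnih2 passed at -0.43 (edgeR, Benjamini-Hochberg adjusted p = 0.000475, range over 19 alternatives 0.000475 to 0.986), and with the length trend removed it was at -0.22 (adjusted p = 0.248). The gene model has 1329 exonic bases and shares some with another annotated gene, which had 1497 counts over all 8 libraries.

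Cnih3 (ENSRNOG00000022724; chromosome 13, 99663150 to 99770625, plus strand) had 11.3, 13.8, 13.5 and 10.7 CPM in vehicle and 5.53, 8.53, 7.94 and 10.8 CPM in PAM libraries, from 24 to 50 counts. PAM 4 overlapped the vehicle range and the other 3 PAM libraries lay below it. The log2 fold change of -0.60 (95% interval -1.30 to 0.10) did not pass, at adjusted p = 0.158 by edgeR with Benjamini-Hochberg adjustment. Its interval takes in both no change and a change as large as that of Cacng8.

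Shisa7 (ENSRNOG00000016877; chromosome 1, 72545596 to 72564513, plus strand) encodes a cystine-knot protein that binds AMPA receptors and has also been described with GABA-A receptors. Vehicle libraries held 80.2, 76.2, 63.5 and 81.8 CPM and PAM libraries 45.4, 52.2, 47.4 and 47.2 CPM. The PAM libraries lay close together, all below the vehicle libraries. Its log2 fold change was -0.65 ± 0.13 (edgeR, Benjamini-Hochberg adjusted p = 0.00183), from -0.73 to -0.61 in the fits without 1 library. Over a gene model of 6089 exonic bases its level was 12.4 ± 1.36 CPM per kb in vehicle and 7.89 ± 0.481 CPM per kb in PAM libraries.

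In vehicle libraries the order per length ran from Cnih2 through Cacng7, Cacng4, Cacng8, Cnih3, Cacng3, Shisa7 and Cacng2 to Cacng5. This order depends on the gene models, since that of Cnih3 has only 483 exonic bases. Without division by length Cnih3 (12.3 CPM) lay below Cacng3 (49.1 CPM), Shisa7 (75.5 CPM) and Cacng2 (16.5 CPM) in vehicle libraries. Cacng4 and Cacng8, and Cnih3 (25.5 ± 3.2 CPM per kb) and Cacng3, were neighbours within their spread. In PAM libraries Cacng4 stood well above Cacng8, and Cacng3 (18.6 ± 1.61 CPM per kb) and Cnih3 (17.0 ± 4.5 CPM per kb) again lay within their spread.

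The pore-forming subunits gave the comparison for the auxiliary genes. Gria1 held 71.9, 65.8, 76.1 and 78.3 CPM in vehicle and 54.4, 56.9, 45.7 and 36.4 CPM in PAM libraries, without overlap. Of the 4 subunit genes, 2 fell, Gria1 (-0.58 ± 0.15) and Gria4 (-0.64 ± 0.21, groups overlapping), and 0 rose (also 0 by edgeR's unadjusted p under 0.05, DESeq2 and limma-voom). The shares of all tested genes were 9.89% lower and 9% higher. The Gria4 call ended without vehicle 1, 3 or 4, without PAM 1 or 3, without PAM 3 and PAM 4 together, and when counts were scaled to pan-neuronal markers (-0.39, adjusted p = 0.18 by edgeR with Benjamini-Hochberg adjustment, range over 19 alternatives 0.00123 to 0.298). On the pan-neuronal scale Gria1 lost its call too (-0.31, edgeR, Benjamini-Hochberg adjusted p = 0.203, range over 19 alternatives 0.00195 to 0.388). Both also lost it when scaled to the summed Gria1 to Gria4 counts (-0.22 for Gria1 and -0.29 for Gria4), a reference of which they are part. Gria2 was at -0.31 (95% interval -0.60 to -0.02) and Gria3 at 0.12 (-0.32 to 0.57), and neither passed edgeR with Benjamini-Hochberg adjustment; without PAM 2 Gria2 did (adjusted p = 0.0197, range over 19 alternatives 0.0197 to 0.823). The summed level of the matched auxiliary genes over that of the subunit genes was 5.42 ± 0.993 in vehicle and 5.94 ± 1.42 in PAM libraries (ratio of CPM, n = 4), with overlap. PAM minus vehicle, the difference was 0.52 with all libraries and -0.54 without PAM 3 and PAM 4. Cnih2 weighs heavily in this sum. Per length the ratio was 16.6 ± 3.03 and 19.1 ± 5.32 with Cnih2, and 5.11 ± 0.907 and 4.67 ± 0.607 without it, both overlapping. For type I TARPs alone, per length, the ratio was 2.13 ± 0.386 and 2.17 ± 0.325. Single members were also set against Gria1. The count ratio of Cacng4 to Gria1 was 2.59 to 3.16 in vehicle and 3.37 to 5.77 in PAM libraries, without overlap. That of Cacng8 was 0.686 to 1.18 and 0.640 to 0.844, and that of Shisa7 0.835 to 1.16 and 0.835 to 1.30, both overlapping.

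Counts were also scaled to other transcripts in place of library size. With counts scaled to the summed pan-neuronal markers, all genes shifted up by a median of 0.28 on the log2 scale, and 3.46% were lower and 22.1% higher. The 13 markers did not move alike: by library size their log2 fold changes ran from -0.97 (Elavl3) to 0.02 (Nefl), with a median of -0.31. Abundant markers weigh most in the sum, such as Uchl1 (1486 CPM in vehicle, -0.08), and other choices of marker were not tested. On the pan-neuronal scale Cacng8 (-0.57, edgeR, Benjamini-Hochberg adjusted p = 0.033) and Cacng5 (-1.65, adjusted p = 0.0131) still fell. Cacng2 (-0.61), Cacng7 (-0.37) and Shisa7 (-0.39) no longer passed, Cacng4 was at 0.25 and Cnih2 at 0.13, and the median of the 9 members was -0.37. With counts scaled to the summed Gria1 to Gria4 counts, a reference added after the data were seen, the shift was 0.39, and 1.79% of genes were lower and 26.5% higher. Cacng5 alone of the 9 then passed (-1.61, edgeR, Benjamini-Hochberg adjusted p = 0.0112), with Cacng8 at -0.50 (adjusted p = 0.0788), Cacng2 at -0.50, Cacng7 at -0.29, Shisa7 at -0.28, Cacng3 at 0.01 and Cacng4 at 0.37. Each reference shifts all genes by nearly the same amount, so the distance of Cacng4 from the median of all genes could hardly change.

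**Figure D3:**
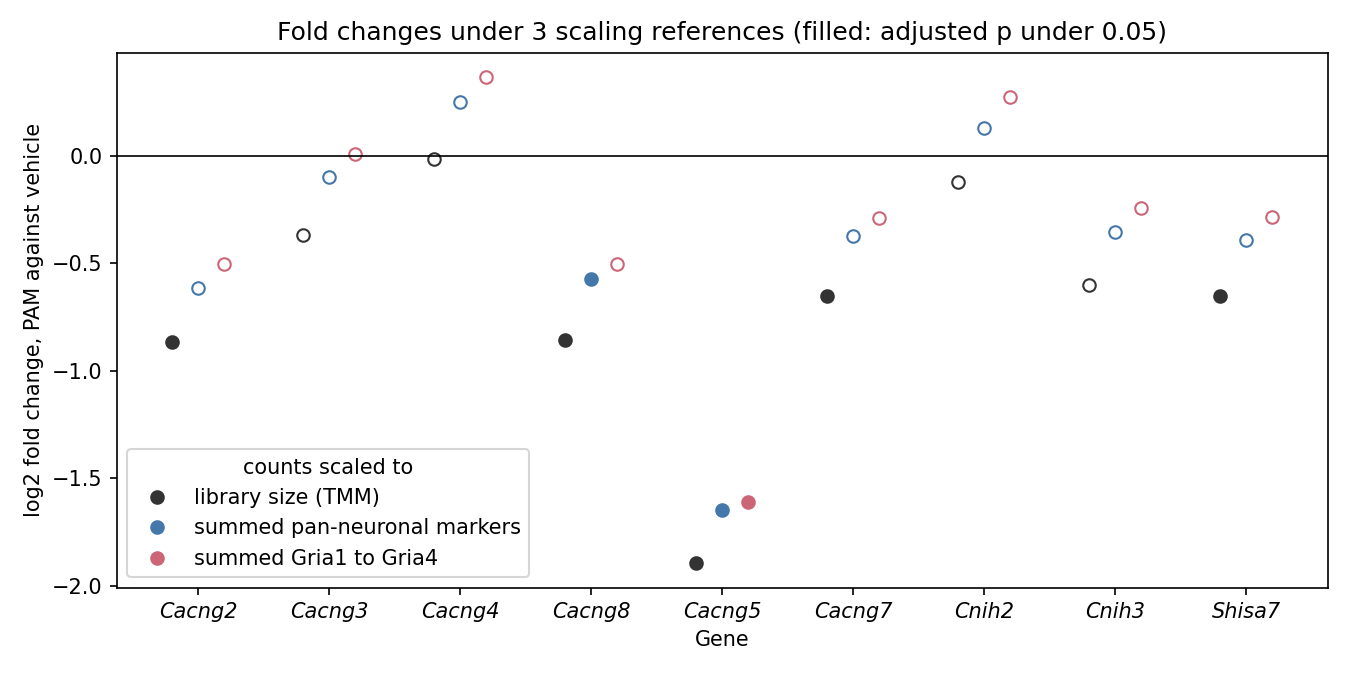
Log2 fold change, PAM against vehicle, of 9 auxiliary protein genes with counts scaled to library size (TMM), to summed pan-neuronal markers or to summed Gria1 to Gria4 counts; filled points passed edgeR with Benjamini-Hochberg adjusted p under 0.05. Cacng5 is filled on all 3 scales (-1.90, -1.65 and -1.61), and Cacng8 on the first and second (-0.86 and -0.57).

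Other genes of the AMPA receptor complex were read from 2 further lists. Of 17 tested genes for other auxiliary, assembly and binding proteins, 5 fell and 0 rose, and the median was -0.47 on the log2 scale. Among all tested genes 9.89% fell and 9% rose. Some neuronal markers fell as well, 5 of 13 tested pan-neuronal and 5 of 9 tested excitatory neuron genes, with 0 higher in either list. Of 8 tested inhibitory neuron genes, 2 fell and 1 rose. By smallest p the 5 complex genes that fell were led by Olfm2 (-0.87 ± 0.13), a secreted olfactomedin found in native AMPA receptor complexes. Next came Prrt2 (-1.14 ± 0.20), a proline-rich membrane protein of release sites. Porcn (-0.69 ± 0.13), an enzyme of the endoplasmic reticulum found with AMPA receptors, and Prrt1 (-0.53 ± 0.13), also known as SynDIG4, followed. The fifth was Olfm1 (-0.40 ± 0.10), named to complete the count. Of the 4 leading genes, Prrt1 did not pass on the pan-neuronal scale (-0.28, edgeR, Benjamini-Hochberg adjusted p = 0.104, range over 19 alternatives 2.39e-07 to 0.632). Scaled to the summed Gria counts, Prrt2 alone of these 4 passed (-0.79), with Olfm2 at -0.47, Porcn at -0.29 and Prrt1 at -0.13. The cornichon genes Cnih1 (0.31) and Cnih4 (0.41), which act in general export, had positive values and did not pass; Cnih1 was the 1 gene of this list higher at an unadjusted p under 0.05 by edgeR, and DESeq2 and limma-voom called 0 higher. Shisa6 and Shisa8 were near 5 CPM or lower in both groups and did not pass, and Frrs1l, an assembly factor gene, was too low to be tested.

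Of 25 tested anchoring and trafficking genes, 9 fell and 1 rose, with a median of -0.44, while 9.89% of all tested genes fell and 9% rose. Nptx1, a secreted pentraxin that clusters AMPA receptors, fell from 276 ± 21.6 to 108 ± 3.92 CPM, and Arc, which drives receptor endocytosis, from 51.3 ± 11.5 to 18.2 ± 1.31 CPM. Dlg4, which encodes the scaffold bound by type I TARPs, fell by 0.65 ± 0.10 on the log2 scale, and Camk2b, a subunit of the kinase that phosphorylates TARPs, by 0.49 ± 0.09. Camk2b did not pass on the pan-neuronal scale (-0.24, edgeR, Benjamini-Hochberg adjusted p = 0.113, range over 19 alternatives 2.23e-07 to 0.652). Scaled to the summed Gria counts, Dlg4 (-0.28) and Camk2b (-0.12) did not pass, while Nptx1 (-0.98) and Arc (-1.13) did. The gene that rose was Sdcbp, which encodes the PDZ adaptor syntenin (0.44 ± 0.10). The paralogue Nptx2 was at 369 ± 48.2 and 407 ± 22.4 CPM and did not pass.

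**Figure D4:**
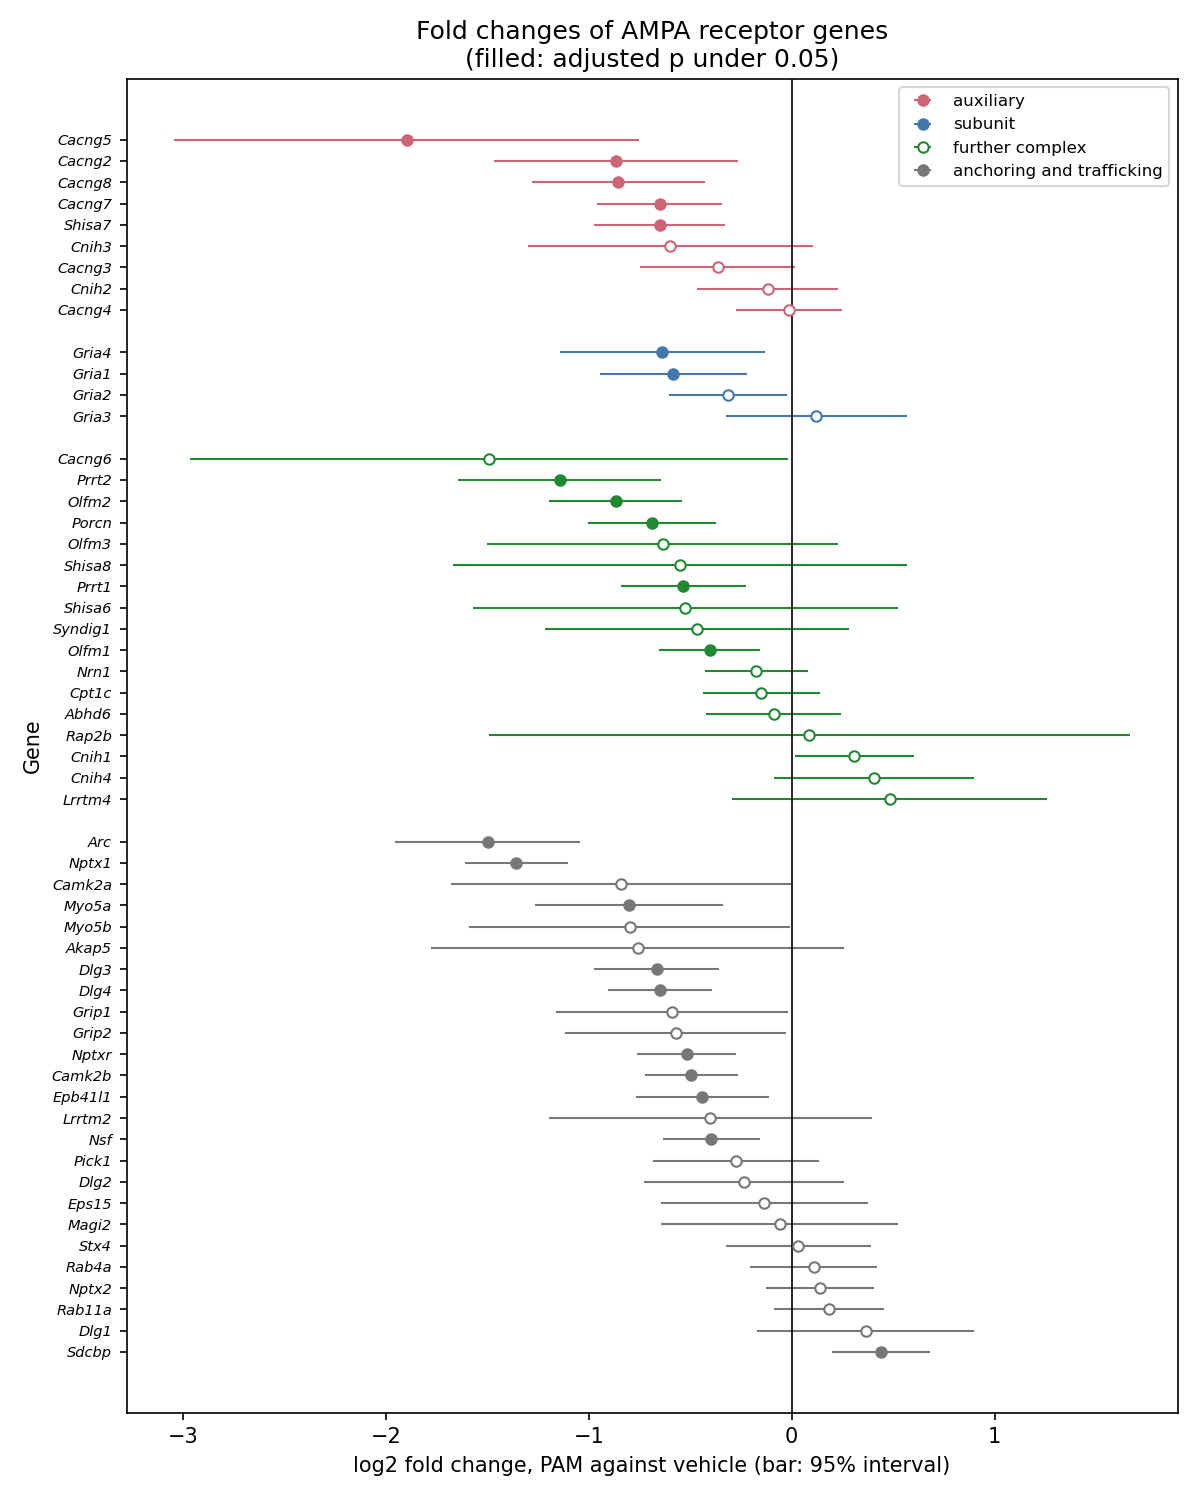
Log2 fold change, PAM against vehicle, with 95% intervals, of the tested auxiliary protein, subunit, further complex, and anchoring and trafficking genes; filled points have an adjusted p under 0.05. The 9 auxiliary protein genes run from -1.90 to -0.01, and Sdcbp (0.44) is the only filled point above 0.

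Among 11320 other tested genes with a symbol, those most like Cacng8 over the 8 libraries (Pearson's r of log2 CPM) were Cdk5r2 (r = 0.98), an activator gene of the neuronal kinase Cdk5, Slc7a1 (0.98) and Itpka (0.97), a kinase gene of dendritic spines. Those most like Cnih2 were Kcnk3, Gnb2 and Vps37d (each 0.98). With group means subtracted the 3 most like Cacng8 were others, Snu13 (0.97), Camta1 (0.96) and Zfp579 (0.96), and for Cnih2 they were LOC102549726, Mpst and Vstm2l (each 0.99). By edgeR Mpst rose (0.57) and Vstm2l fell (-0.53), while Cnih2 did neither. All these correlations are the highest picked from 11320 genes, and how high they would run from the picking alone was not tested. They share libraries and depth and are a description over 8 points.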

How the data were processed

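Per the labels' protocols, RNAiso Plus was used for RNA and a Vazyme VAHTS mRNA-seq kit for libraries. The authors deposited raw gene counts, 1 file a library, laid out as featureCounts writes them, per the file headers. The submitters' processing notes name STAR, featureCounts, DESeq2, DESeq and build Rnor_6.0. No source used here states strandedness, annotation release or the treatment of multi-mapping reads. The authors' deposited table, per the file headers, pairs identifiers with symbols and gives group means (signal), a log2 fold change, a p-value and its adjusted form.

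After filterByExpr, 11740 genes were tested in R 4.3.3 with edgeR 4.0.16 and TMM factors (quasi-likelihood F test, robust, group only, Benjamini-Hochberg adjusted p under 0.05, no fold threshold). SE is the log2 fold change over the square root of F. The 95% intervals use 6 residual degrees of freedom, whereas the test also borrows information across genes. The intervals are therefore wider than the test implies, and that of Cacng3 takes in 0 at an unadjusted p of 0.0309 by edgeR. "Fell" and "rose" mean past this test. CPM uses TMM-scaled totals; CPM per kb divides by the deposited exonic length. Within a group, chi-square per degree of freedom between libraries was 2.83 to 16.03, and every library was kept as a replicate of its own.

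The members and lists were chosen with earlier results of these data known. Named were all members, Gria1 to Gria4, the 4 genes of each further list with the smallest p, and the 3 genes most like Cacng8 and Cnih2; Olfm1, Sdcbp, Nptx2, Cnih1, Cnih4, Cacng6, Shisa6, Shisa8 and Frrs1l were added after their values were seen. Alternatives were DESeq2 1.42.0, limma-voom (limma 3.58.1), other scalings and filters, the replicate block, libraries left out and length-trend removal (loess, span 0.5). The procedure was tested on simulated counts.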

Additional observations from a re-analysis of the deposited data

Results flagged for a closer look

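Of 26 groups of 4 libraries checked for a library far from the others (9 members and 4 subunit genes, in 2 groups), 1 had one: Cacng7 in vehicle 1, at 263 CPM against 320 to 328 CPM in the other vehicle libraries. Chance flags about 1 in 20 such groups. Without vehicle 1 the log2 fold change of Cacng7 was -0.72 (edgeR, Benjamini-Hochberg adjusted p = 0.00195, range over 19 alternatives 1.02e-06 to 0.261), against -0.65 with all libraries.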

How the results depend on the processing

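Over 19 alternatives for each of 9 members (171 fits in all), the direction and the side of the threshold were as reported in 151. The number of members lower with PAM was 5 in most, 4 to 5 with 1 library left out, and 6 with PAM 3 and PAM 4 both left out; it was 2 with counts scaled to pan-neuronal markers and 1 with counts scaled to summed Gria1 to Gria4, and 0 were higher under any. All genes past the test numbered 1527 to 2408 with 1 library left out, 2900 without PAM 3 and PAM 4, and 2218 in the reported fit. The share of all tested genes that was lower was 9.89% in the reported fit and 6.7% to 10.6% with 1 library left out. It was 12.5% without PAM 3 and PAM 4, 3.46% on the pan-neuronal scale and 1.79% on the Gria scale. The share that was higher ran from 5.9% to 26.5% over all settings. Values changed sign, without passing the test, for Cacng4 (0.0123 with upper-quartile scaling, 0.0442 with the length trend removed, 0.25 and 0.37 on the pan-neuronal and Gria scales, and -0.0695 to 0.0430 with 1 library left out, positive without vehicle 3 or PAM 2), Cnih2 (0.13 and 0.28 on those scales), Cacng3 (0.0102 on the Gria scale) and Gria2 (0.0605 on the Gria scale). The causes were not tested. With the replicate block 5 members were lower and 0 higher, and 2064 genes passed in all; the labels do not say what a replicate number marks, and deviations of same-numbered libraries correlated at -0.060 to 0.068, so the numbers were not taken as pairs. No vehicle library correlated best with the PAM library of its own number. The summed ratio of auxiliary to subunit genes, 0.52 higher in PAM libraries, was at a difference of -0.54 without PAM 3 and PAM 4. Low counts limit Cacng5, Cacng2 and Cnih3, whose SE was 0.25 to 0.47 against 0.11 to 0.17 for the other members.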
